A study of Mus musculus with 3 samples.

Results

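The 6 h treatment was 1 of 3 treatment times in a study of DB818 in MigA9 cells, and 1 array of the study's 3 measured it. The treated cells had received 2.5 µM DB818 for 6 h. The comparison cells were of the same line, were not exposed to the compound, and shared the Hoxa9 transformation and the growth medium conditioned with GM-CSF. RNA of the treated cells was labelled with Cy5 and RNA of the untreated cells with Cy3, and both were hybridised to 1 two-colour array. Spots entered that were neither controls nor outliers, lay well above background in both channels and were not saturated. They gave 16704 probes and 11450 of the 27389 genes on the array. The labels do not state whether the untreated RNA of the 3 arrays came from one preparation or from several.

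MigA9 is a mouse cell line transformed by Hoxa9, a homeobox transcription factor that keeps immature myeloid cells from maturing. DB818 belongs to the compounds that settle in the minor groove of DNA at stretches of A and T, and it has been studied as a blocker of Hoxa9 binding to DNA. Transcripts that turn over fast can change within hours of such a treatment, whereas stable ones lag behind. A pathway that reads out oxygen supply recurs below. The factor Hif1a pairs with Arnt, is marked for destruction by the Egln prolyl hydroxylases and Vhl when oxygen is ample, and when stable switches on genes of glycolysis, glucose and lactate transport and mitochondrial turnover through short sites with the core ACGTG or GCGTG.

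A value given without a unit is the log2 of the treated over the untreated signal, and a log2 signal is the brightness of 1 channel. Median raw signals were 72.1 in Cy5 and 78.2 in Cy3, over median backgrounds of 54 and 41. The Cy3 median thus stood further above its background than the Cy5 median. The log2 ratio of repeated spots of a probe scattered by 0.043 (SD, 22 probes), which covers spotting and scanning only. With 1 array there was no replicate culture and no swap of dyes, so no difference could be set against the spread between cultures and none was tested. In bulk RNA, fewer cells of a kind and less of a transcript per cell cannot be told apart. Among the markers of the line, Hoxa9 had an untreated log2 signal of 13.47, Mpo of 13.44, Elane of 12.41 and Kit of 8.15. Meis1, the usual partner of Hoxa9, and the progenitor markers Cd34 and Flt3 did not reach the scanner's limit of well above background. Some markers of other lineages were measured in both channels. They were 2 of 10 erythroid genes (Car2 and Epor) and 2 of 10 mast cell and basophil genes (Hdc and Mcpt8). The rest were 1 of 8 B cell genes (Vpreb1), 1 of 8 T and NK cell genes (Cd4) and 0 of 8 megakaryocyte genes.

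Most transcripts stayed near a ratio of 1 at 6 h. A gene is called higher or lower here when its log2 ratio was at least 0.32 above or below 0. Of 11450 genes, 205 (1.79%) were called higher in treated cells and 83 (0.725%) lower, while 97.5% lay within 0.32 of 0. At 1.5-fold 15 genes (0.131%) were higher and 9 (0.0786%) lower. No gene was 2-fold higher, and 2 (0.0175%) were at least 2-fold lower, Bnip3 and an unnamed clone. The counterpart at 12 h was 160 higher (1.39%) and 83 lower (0.723%), and at 24 h 315 higher (2.72%) and 169 lower (1.46%). The median ratio of all genes was 0.03, with an SD of 0.13 across genes, and 59.8% of genes were above 0 and 40.1% below. Later ratios and signals of a gene are given for the probes measured at 6 h, and only where each of them was measured.

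**Figure D1:**
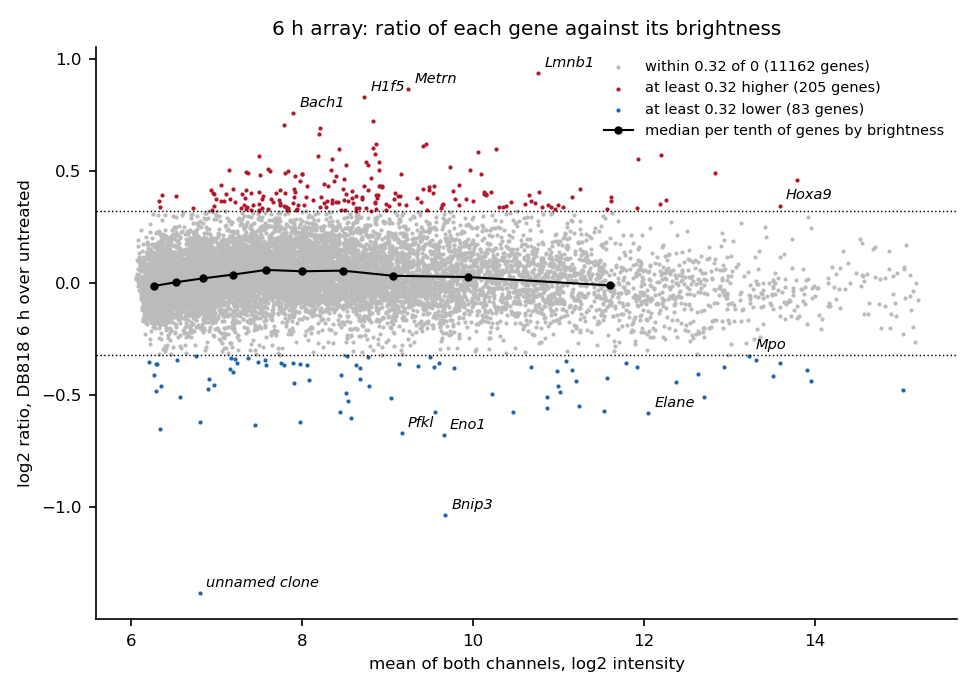
Log2 ratio of treated to untreated cells at 6 h (vertical) against the mean log2 intensity of both channels (horizontal) for 11450 genes, with 1 point per gene and dotted lines at 0.32 above and below 0. The 205 higher genes (red) lie mostly at middle brightness, Bnip3 at -1.03 and a clone at -1.38 stand lowest, and the black line joins the median ratios of 10 equal groups of genes by brightness, which run between -0.01 and 0.06.

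Brightness and the ratio were not independent on this array. The median ratio was -0.01 in the dimmest of 10 equal groups of genes, 0.06 in the fifth and -0.01 in the brightest. Higher genes were fewest in the dimmest groups (3 and 1) and most numerous in the eighth (39), whereas lower genes were most numerous in the brightest (26, against 2 to 9 in each of the others). How the array was scaled set the size and the balance of these counts. With the scanner's own log ratio the higher genes numbered 683 and the lower 814. With the array centred on its median, in place of a loess curve fitted against brightness, the counts were 1766 and 3343, and the median ratio ran from -0.75 in the dimmest group to 0.43 in the brightest. The balance of higher to lower genes at 6 h therefore differed with how the ratio was formed, and the ratios below are best read against genes of like brightness. Of the 205 higher genes 147 were past 0.32 under each of 4 other ways of forming the ratio, and of the 83 lower genes 41 were.

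Probes of 1 gene gave an internal check that the array offered for 3992 genes. Their ratios had a pooled SD of 0.13 between probes of a gene and a median range of 0.12, and in 2312 genes (57.9%) all probes had the same sign. Among the genes at least 0.32 higher, 68 had several probes, 63 of them with probes of one sign and 11 with every probe past 0.32. Only 5 of the lower genes had several probes, 4 with one sign and 2 with every probe past 0.32. The other 137 higher and 78 lower genes rested on a single probe each.

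Metrn, which encodes the secreted neurotrophic protein meteorin, had the highest agreed ratio. Its 2 probes read 0.82 and 0.91, for a mean of 0.87 or 1.82-fold. Next came U2af1, the splicing factor that reads the end of introns, at 0.47 and 0.56, and Laptm5, a lysosomal membrane protein of blood cells, at 0.46 and 0.55. Elovl7, a fatty acid elongase, read 0.40 and 0.51, and Ptma, the abundant nuclear protein prothymosin alpha, 0.40 and 0.59. Dnajc2, a ribosome-bound chaperone, read 0.39 and 0.45, and the nucleosome-binding protein Hmgn5 0.34 in both probes. On the lower side Pkm, the pyruvate kinase that ends glycolysis, was the most extreme, with probes at -0.47 and -0.40. With probes left out as dim included, Pkm read -0.28 and was no longer past 0.32. Kifc5b, a mitotic kinesin, read -0.38 and -0.36, and the valyl-tRNA synthetase Vars -0.46 and -0.29. The histone deacetylase Hdac7 read -0.35 and -0.26 and Ero1a, the oxidase that supports disulfide formation in the endoplasmic reticulum, -0.32 and -0.24. These agreed ratios were smaller than those of the single-probe genes at the top of the ranking, Metrn excepted.

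Other genes had probes that disagreed, and their means say little about the gene. Huwe1, a large ubiquitin ligase, had probes at 0.05 and 0.79, and Trp53, which encodes p53, at 0.09 and 0.62. Among genes with more probes, Cd47, the surface signal against engulfment, read 0.00, 0.11, 0.12 and 0.77. Chd4, a chromatin remodeler, read 0.01, 0.47 and 0.55. The chaperone Calr had probes of opposite sign, -0.23 and 0.53. Myb, a transcription factor of immature blood cells, had 3 probes between -0.26 and -0.17 and 1 at 0.30.

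**Figure D2:**
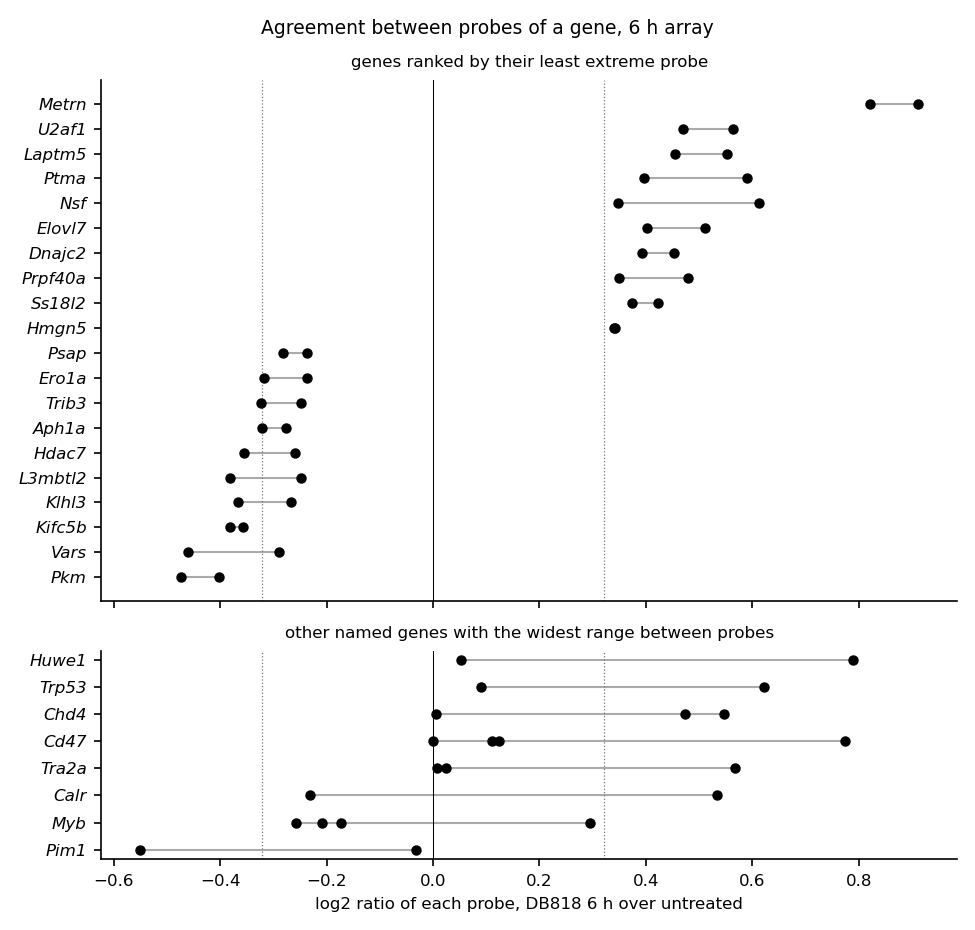
Log2 ratio at 6 h of each probe (points) for the genes ranked highest and lowest by their least extreme probe (upper panel) and for 8 other named genes with the widest range between probes (lower panel), with dotted lines at 0.32 above and below 0. Both probes of Metrn lie above 0.8, whereas the probes of Huwe1 and Trp53 run from near 0 to above 0.6.

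The lowest ratios included several genes of the hypoxia response and of glycolysis. Bnip3, a mitochondrial receptor for mitophagy that hypoxia induces, had the lowest ratio of any established gene. Its untreated log2 signal was 10.23 and its treated signal 9.20, a log2 ratio of -1.03 or 2.05-fold lower. At 12 h its ratio was 0.02 and at 24 h -0.02. Egln3, the hypoxia-induced prolyl hydroxylase, read 8.91 untreated and 8.31 treated (-0.60 at 6 h, -0.18 at 12 h and -0.20 at 24 h). Ankrd37, a small ankyrin repeat protein and known hypoxia target, read 8.77 untreated and 8.20 treated, with ratios of -0.57 at 6 h, -0.01 at 12 h and 0.06 at 24 h. Bnip3 and Ankrd37 were thus far from 1 only on the first array. Ndrg1, a stress-induced cytosolic protein, had ratios of -0.42, 0.19 and 0.15 at 6, 12 and 24 h. P4ha2, a collagen prolyl hydroxylase, had -0.46 at 6 h and 0.07 at 24 h, and was dim with signals of 6.58 and 6.12.

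The start regions of 3 of these genes, and of the glycolysis gene Pfkl described below, are shown because the pathway works through a short DNA core. RefSeq windows of GRCm38.p6, from 250 bases before to 50 after the start, are printed with ACGTG and GCGTG (either strand) in capitals; ACGTG also lies inside the E-box CACGTG.
Bnip3, chr7:138909457-138909756, minus strand: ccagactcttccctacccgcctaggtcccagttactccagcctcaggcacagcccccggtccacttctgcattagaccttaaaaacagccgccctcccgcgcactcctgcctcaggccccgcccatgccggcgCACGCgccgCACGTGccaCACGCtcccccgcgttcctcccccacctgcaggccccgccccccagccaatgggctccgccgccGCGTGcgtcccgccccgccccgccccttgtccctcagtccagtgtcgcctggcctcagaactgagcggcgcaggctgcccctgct
Ankrd37, chr8:45999801-46000100, minus strand: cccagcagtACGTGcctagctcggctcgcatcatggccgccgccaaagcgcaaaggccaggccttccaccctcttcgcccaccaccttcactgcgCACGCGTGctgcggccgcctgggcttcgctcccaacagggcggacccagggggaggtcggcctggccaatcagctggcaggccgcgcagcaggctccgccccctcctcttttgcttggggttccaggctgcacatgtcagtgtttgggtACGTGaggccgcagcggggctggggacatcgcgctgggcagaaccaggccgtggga
Egln3, chr12:54203825-54204124, minus strand: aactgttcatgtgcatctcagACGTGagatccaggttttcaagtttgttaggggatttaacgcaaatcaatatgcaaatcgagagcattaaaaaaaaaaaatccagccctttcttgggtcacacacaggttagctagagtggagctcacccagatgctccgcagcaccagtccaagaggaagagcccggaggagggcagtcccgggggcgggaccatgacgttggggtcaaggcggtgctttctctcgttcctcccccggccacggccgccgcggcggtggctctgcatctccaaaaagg
Pfkl, chr10:78009758-78010057, minus strand: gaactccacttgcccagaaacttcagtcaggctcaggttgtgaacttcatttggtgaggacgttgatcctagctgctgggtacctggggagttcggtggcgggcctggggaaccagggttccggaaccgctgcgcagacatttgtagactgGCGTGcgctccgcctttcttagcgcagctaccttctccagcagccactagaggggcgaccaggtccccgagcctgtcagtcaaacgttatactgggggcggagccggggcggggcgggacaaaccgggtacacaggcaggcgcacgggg

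In the Bnip3 window 5 matches clustered ahead of the start, counting both strands, and the Ankrd37 window held 4. Egln3 and Pfkl had 1 each, and the Tpi1 window held none of either core. Over all measured genes with a window (8201 genes, 10456 windows) ACGTG was found in 26.4% and GCGTG in 51.0%. ACGTG was in 54.7% of the 75 windows of the glycolysis and hypoxia lists given below, and in 62.5% of the 16 windows of their members at least 0.32 lower. In windows of the lower genes outside these lists it was in 28.6% of 42, and in windows of the higher genes in 26.8% of 164. GCGTG was in 57.3% of the list windows, 62.5% of those of the lower members, 42.9% of those of the other lower genes and 56.7% of those of the higher genes. The share of ACGTG in the list windows was thus above that of the higher genes, while their shares of GCGTG were alike. The lists hold genes of a pathway that works through these cores, so their shares describe the lists and not the 6 h ratios. Genes with several starts gave several windows that can overlap, with 75 windows from 51 list genes and 16 from 13 lower members. A match is a run of letters and not a bound site.

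The enzymes of glycolysis are given here in pathway order. Slc2a1 and Slc2a3, which bring glucose into the cell, had ratios of -0.07 and -0.22, and the hexokinases Hk1, Hk2 and Hk3, which trap it, -0.16, 0.03 and -0.17. Gpi1, the isomerase that follows, read -0.20. Pfkl, the liver-type subunit of the committed phosphofructokinase step, read 9.54 untreated and 8.87 treated, a ratio of -0.67, while its relatives Pfkm and Pfkp read -0.01 and -0.05. Aldoa, which splits the sugar, read -0.26, and Tpi1, which interconverts its products, read 13.04 untreated and 12.53 treated, or -0.51. Lower in the pathway Pgk1 read -0.27, Pgam1 -0.35 and Eno1 -0.68 (10.04 untreated, 9.36 treated). Pkm read -0.44, or -0.28 with probes left out as dim included. Ldha, which makes lactate, read 0.01, and Slc16a3, which exports it, -0.40. Pgm1 and Gys1, on the way to glycogen, read -0.39 and -0.30. Each phase of the pathway thus held members below 0. Of 26 measured members 3 were slightly above it, Ldha and Hk2 among them, and the highest read 0.06.

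Counted over the lists, 23 of 26 measured glycolysis genes were below 0 and 7 were at least 0.32 lower. Of 30 measured hypoxia-induced genes outside glycolysis 26 were below 0, beside 40.1% of all genes, and 8 at least 0.32 lower. Together that is 15 of 56 members (26.8%), beside 0.725% of all genes, and 0 of 56 were 0.32 higher. Most of the 15 rested on a single probe, as only 5 of the 83 lower genes on the array had several. The median ratios of the 2 lists were -0.19 and -0.17 at 6 h, beside 0.03 for all genes. Over members with at least 2 measured probes the 6 h medians were -0.19 and -0.08. At 12 h the medians were -0.03 (26 genes) and 0.01 (27 genes), and at 24 h -0.01 and 0.03 over the same numbers of genes. Both lists were chosen with earlier results of these arrays known, so the counts describe them and support nothing further. The glycolysis median turned to 0.13 when the array was only centred on its median, under which the brightest group of all genes read 0.43, and the other hypoxia median stayed at -0.21. Against genes of the same brightness group the 2 lists together had a median of -0.20 with loess and -0.17 with median centring, and 50 and 48 of the 56 members were below their group's median. In a separate list of regulators of the response, Hif1a read -0.16, Arnt -0.06, Vhl -0.19 and Egln2 0.03, and 0 of 12 measured members were past 0.32 either way. The hydroxylases Egln1 (-0.05) and Egln3 are counted among the hypoxia-induced genes.

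The channels locate where these ratios differed from the later arrays. The mean of both channels was scaled to one distribution across the arrays, with the ratios left as they were. The untreated signal of Bnip3 was then 10.23, 8.72 and 9.20 on the 6, 12 and 24 h arrays. Its treated signal was 9.20, 8.74 and 9.18. For Ankrd37 the untreated signals were 8.77, 6.81 and 6.99 and the treated ones 8.20, 6.81 and 7.04. Pfkl read 9.54, 8.93 and 8.97 untreated and 8.87, 8.66 and 8.65 treated. In all 3 genes the untreated signal stood apart on the 6 h array, and for Ankrd37 the treated signal did too. Across the lists the untreated signal at 6 h exceeded its mean at 12 and 24 h in 23 of 26 glycolysis genes (median difference 0.16) and in 23 of 26 other hypoxia genes (0.20). The treated signal did so in 16 of 26 (0.03) and in 13 of 26 (0.02). Over all genes measured on the 3 arrays these shares were 52.1% for the untreated and 52.9% for the treated channel. The part of the untreated channel in the low 6 h ratios was not tested, since each time had 1 untreated sample.

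**Figure D3:**
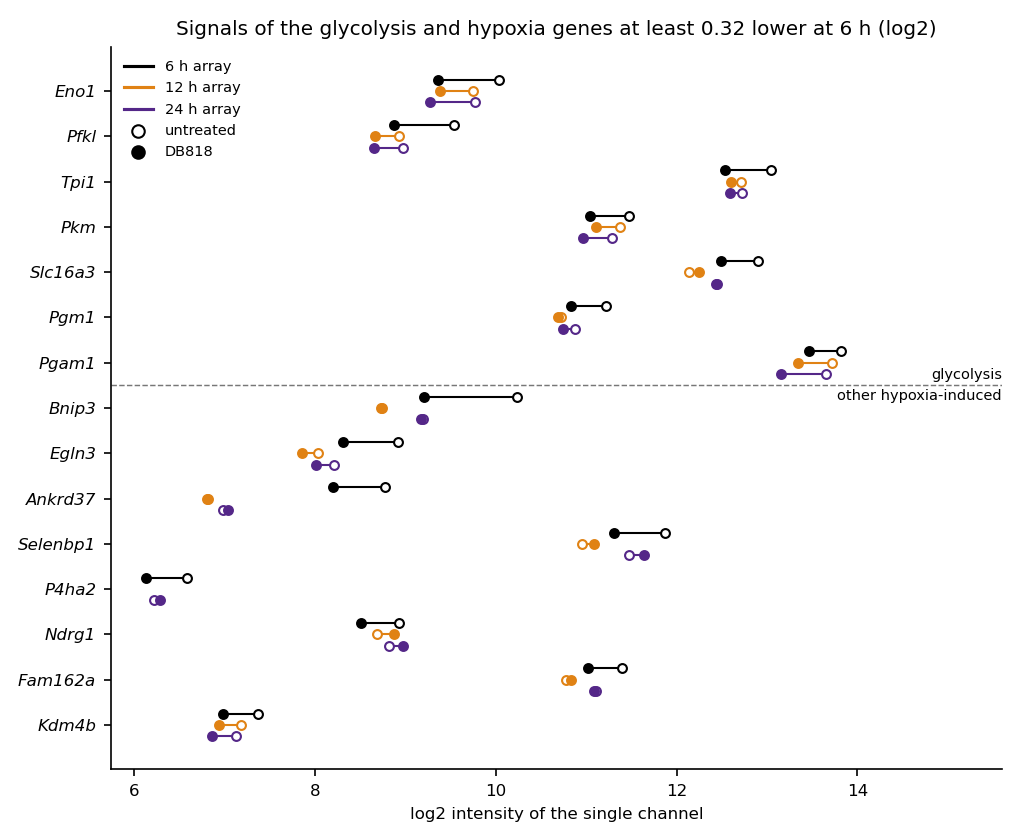
Log2 signals of untreated (open) and DB818-treated cells (filled) on the 6 h (black), 12 h (orange) and 24 h (purple) arrays for the 15 glycolysis and hypoxia genes at least 0.32 lower at 6 h. For Bnip3, Ankrd37 and Pfkl the open 6 h point lies to the right of the later ones, and the gap between open and filled points is widest at 6 h for each of the 3.

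Several of the lowest ratios lay outside these examples. Rmrp, the RNA of a nuclear and mitochondrial RNase, read 8.31 untreated and 7.69 treated at 6 h, a ratio of -0.62, beside 0.03 at 12 h and 0.00 at 24 h. Its untreated signals on the 12 and 24 h arrays were 8.53 and 8.08, so here the treated channel was the one that stood apart. Dhrs11, a short-chain dehydrogenase, had a ratio of -0.63 at 6 h and of 0.00 and 0.01 later. Its untreated signal was 7.79 on the 6 h array and 6.70 and 6.68 on the others, with treated signals of 7.15, 6.69 and 6.69. Selenbp1, which is counted in the hypoxia list, and Selenbp2, its near-identical copy outside the list, encode selenium-binding proteins and had ratios of -0.57 and -0.55 at 6 h and 0.14 and 0.17 at 12 h. Their probes may read each other's transcript and cannot be taken as separate genes. Neat1, the long noncoding RNA that builds paraspeckles, had ratios of -0.49, -0.34 and -0.04 at 6, 12 and 24 h. Rab10os, an antisense transcript, read -0.62 at 6 h, or -0.30 with probes left out as dim included, and its measured probe was not measured later.

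A second group of low ratios was about as low on the later arrays. Elane, the neutrophil elastase of primary granules, read 12.41 untreated and 11.83 treated at 6 h, and its log2 ratio over the 3 times was -0.58, -0.57 and -0.71. Klf2, a transcription factor of quiescent blood cells, had ratios of -0.49, -0.47 and -0.68. Arhgef1, an activator of the GTPase RhoA in leukocytes, had -0.52, -0.43 and -0.43. The untreated signals of Elane (12.41, 12.25 and 12.25), Klf2 (8.80, 8.88 and 9.07) and Arhgef1 (8.84, 8.85 and 8.84) varied less between arrays than that of Bnip3. Against its mean at 12 and 24 h the untreated 6 h signal differed by 0.16 for Elane, -0.17 for Klf2 and -0.004 for Arhgef1. For Bnip3 this difference was 1.27, and the median of the glycolysis list was 0.16.

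**Figure D4:**
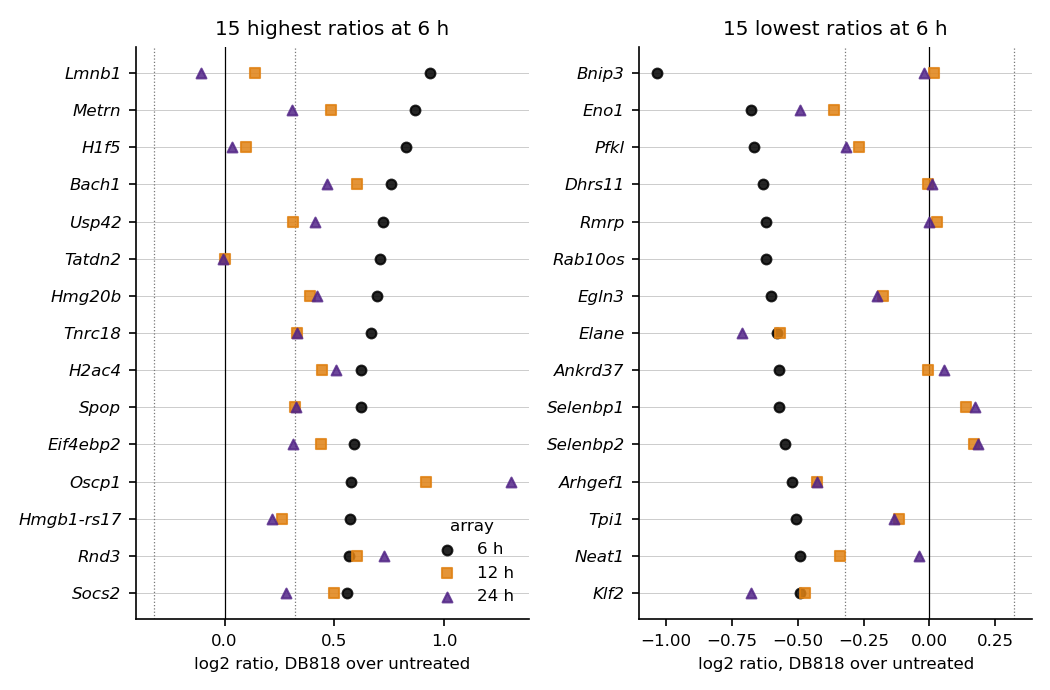
Log2 ratios of the 15 highest (left) and 15 lowest (right) established genes at 6 h (circles), with their ratios at 12 h (squares) and 24 h (triangles) and dotted lines at 0.32 above and below 0. Lmnb1, H1f5, Tatdn2 and Hmgb1-rs17 on the left were within 0.32 of 0 on both later arrays, whereas others such as Oscp1 were not. On the right Bnip3, Pfkl, Dhrs11, Rmrp, Egln3, Ankrd37, both Selenbp genes and Tpi1 were, whereas others such as Elane were not.

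The highest ratios included genes for several proteins of the nucleus. Lmnb1, lamin B1 of the nuclear lamina, read 10.34 untreated and 11.27 treated at 6 h, a ratio of 0.94 or 1.92-fold higher, beside 0.14 at 12 h and -0.11 at 24 h. Its untreated signal was 10.35 and 10.07 on the later arrays and its treated signal 10.49 and 9.96, so the treated channel at 6 h stood apart. H1f5, a linker histone, followed the same course with 8.35 untreated and 9.18 treated (0.83 at 6 h, 0.10 at 12 h and 0.03 at 24 h). Tatdn2, a nuclease of the TatD family, read 7.47 untreated and 8.18 treated, a ratio of 0.71, and its ratios later were 0.00 and -0.01. These 3 genes each had 1 probe. The lamina list as a whole did not share the Lmnb1 ratio: 10 of 20 members were above 0 and 10 below, Lmnb2 read -0.03, Lmna -0.08 and the lamin B receptor Lbr -0.01. The nesprins Syne3 and Syne1, which tie the nucleus to the cytoskeleton, were its only other members past 0.32, at 0.53 and 0.34. With Lmnb1 these were 3 of 20 members, beside 1.79% of all genes higher. With probes left out as dim included, Syne1 read 0.105.

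Other high ratios were smaller on the later arrays but stayed above 0, with Oscp1 and Rnd3 as exceptions. Bach1, a repressor of genes for heme breakdown and antioxidant defence, read 7.55 untreated and 8.31 treated, and its log2 ratio over the 3 times was 0.76, 0.60 and 0.47. Of its known targets, Hmox1 read -0.17, Nqo1 0.06, Gclm 0.12 and Fth1 0.04 at 6 h, and Gclc, for glutathione synthesis, 0.49. Usp42, a deubiquitinase, had ratios of 0.72, 0.31 and 0.41, and Spop, a substrate adaptor of the Cul3 ubiquitin ligase, 0.62, 0.32 and 0.32. Hmg20b, a subunit of the LSD1 corepressor complex, had 0.69, 0.39 and 0.42, and the chromatin protein Tnrc18 0.67, 0.33 and 0.33. Eif4ebp2, an inhibitor of translation initiation, had 0.59, 0.44 and 0.31. Oscp1, with 0.58, 0.92 and 1.31, and Rnd3, an atypical small GTPase, with 0.57, 0.60 and 0.73, were the 2 of the 15 whose ratio was larger at each later time. Socs2, a feedback inhibitor of cytokine signalling, had 0.56, 0.50 and 0.28. With probes left out as dim included, the 6 h ratio was 0.18 for Socs2, 0.28 for Rnd3 and 0.42 for Usp42. It was unchanged for the other high genes of this paragraph. Hmgb1-rs17, at 0.57, is a copy of Hmgb1, whose own ratio was 0.11, and the probe may read both.

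The sets chosen by their 6 h ratio can be described by channel in the same way, as values that the choice itself shapes. Among the 15 highest genes the treated signal at 6 h exceeded its later mean in 12 and the untreated signal in 1, and the treated channel was the one further from its later mean in 10. Among 14 of the 15 lowest that all arrays measured, the untreated signal exceeded its later mean in 12, with a median difference of 0.62, and the treated channel was the one further off in 3. Over the 205 higher genes the treated channel was further off in 137, and over 74 of the lower genes in 20. The treated channel was further off more often for high ratios and the untreated one for low ratios.

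For the higher genes too the start regions are printed, here with runs of at least 6 letters A or T in capitals, since the compound class binds such stretches. H1f5 and Bach1 are shown as windows rich and poor in them.
H1f5, chr13:21780576-21780875, minus strand: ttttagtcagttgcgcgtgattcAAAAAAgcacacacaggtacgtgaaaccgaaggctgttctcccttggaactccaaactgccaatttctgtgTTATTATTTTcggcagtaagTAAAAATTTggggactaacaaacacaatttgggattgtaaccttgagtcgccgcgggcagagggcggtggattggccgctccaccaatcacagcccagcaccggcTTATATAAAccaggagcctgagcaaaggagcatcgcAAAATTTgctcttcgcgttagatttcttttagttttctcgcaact
Bach1, chr16:87698704-87699003, plus strand: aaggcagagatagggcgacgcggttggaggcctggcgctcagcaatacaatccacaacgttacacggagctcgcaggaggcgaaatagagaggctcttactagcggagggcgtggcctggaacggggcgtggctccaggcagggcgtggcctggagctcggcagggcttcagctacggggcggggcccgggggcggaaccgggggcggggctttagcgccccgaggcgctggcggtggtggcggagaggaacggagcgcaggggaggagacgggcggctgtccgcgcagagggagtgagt

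The H1f5 window held 5 such runs and 53.7% A or T, and the Bach1 window held none and 30.3%. As a set the higher genes had windows like those of other genes. Their median content of A and T was 38.3% (164 windows), that of the lower genes 39.2% (58 windows) and that of all measured genes 39.3%. A run of 6 or more was found in 57.9% of windows of the higher genes, 63.8% of the lower and 55.0% of all. TGATTTAT, the joint site of Hox and Pbx proteins, was in 0 of 164 windows of the higher genes, in 1.72% of the lower and in 0.363% of all. Its shorter core TTTAT was in 28.7, 24.1 and 25.3%. Windows of this length leave out distal elements.

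Lists of nuclear proteins are given here beside the 59.8% of all genes that were above 0. Of 43 measured chromatin genes 33 were above 0 and 5 at least 0.32 higher (background 1.79%), with a median of 0.09. Besides Hmg20b, Tnrc18, Hmgn5 and, on disagreeing probes, Chd4 these held Dnmt3a, a de novo DNA methyltransferase, at 0.40. With probes left out as dim included, Dnmt3a read 0.21. The deacetylases Hdac7 (-0.31) and Hdac1 (-0.29) were its lowest members. Ubiquitin ligases and deubiquitinases had 23 of 29 members above 0, with a median of 0.09. The 3 past 0.32 were Usp42, Spop and, on disagreeing probes, Huwe1. Histone genes, most of them in near-identical copies whose probes may read each other, had 16 of 29 above 0, and H1f5 and H2ac4 (0.62) were past 0.32. The linker histones H1f2, H1f3 and H1f4 read -0.15, -0.03 and -0.01, so the H1f5 ratio was not shared by its family. Splicing factors had 31 of 43 members above 0 with U2af1 at 0.52 and Srsf11 at 0.34, while U2af2, the partner of U2af1, read -0.27. Genes of the nucleolus and of Myc's network had 25 of 40 above 0, a share near that of all genes, with Wdr43 at 0.40, the Myc partner Max at 0.36 and Tcof1 at 0.31, and Myc itself at -0.04.

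Hoxa9 is the factor whose DNA binding the compound was studied for. Its probe read 13.47 untreated and 13.82 treated at 6 h, and its log2 ratio over the 3 times was 0.35, 0.21 and 0.11. Whether this probe also reads the transforming Hoxa9 transcript was not tested, since probe sequences were not used here. Of 24 Hox and TALE genes 8 were measured, and Hoxa9 was the only one past 0.32. The cofactors Pbx3, Pbx2 and Pknox1 read 0.13, 0.01 and 0.02. Hoxd9, outside the list and named after its value was seen, read 0.46, with 0.29 and 0.23 later. Of 30 measured genes reported as targets of Hoxa9 or of Hoxa9 with Meis1, 21 were above 0 and 9 below, with a median of 0.08. The transcription factor gene Dach1 (0.39) was at least 0.32 higher and Btk, a kinase of immune receptors, at least 0.32 lower (-0.38). Kit, the stem cell factor receptor, read 0.31 at 6 h, 0.35 at 12 h and 0.31 at 24 h. Pim1, a kinase, had a mean of -0.29 from probes at -0.55 and -0.03. With 1 of 30 members past 0.32 each way, beside 1.79% and 0.725% of all genes, the reported targets were near the background.

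Most measured granule genes lay within 0.32 of 0 at 6 h, with Elane, Mpo and Itgam as exceptions. Mpo, the myeloperoxidase of primary granules, read 13.44 untreated and 13.12 treated, with ratios of -0.32, -0.52 and -1.18. In the primary granule list 10 of 14 members were below 0, beside 40.1% of all genes. Elane and Mpo, 2 of the 14, were at least 0.32 lower, beside 0.725% of all genes. The list medians were -0.07, -0.22 and -0.28 at 6, 12 and 24 h. Prtn3, a relative of Elane, read -0.21, and Ctsg was saturated. Late granule genes had 15 of 21 members below 0, beside 40.1% of all genes. Their median was -0.10 at 6 h, and 0.01 and 0.17 later. S100a9 and Ltf, which serve neutrophil defence, read -0.18 and -0.21 at 6 h and 0.55 and 0.19 at 24 h. Itgam, the integrin chain CD11b, read 0.42 from probes at 0.23 and 0.62. It was the only 1 of the 21 past 0.32, beside 1.79% of all genes higher. Late granule signals were low in both channels of the 6 h array, below the later mean in all but 2 of 21 genes treated and all but 1 untreated.

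Monocyte genes had 17 of 25 members below 0, beside 40.1% of all genes, none past 0.32, and a median of -0.09. Gpr65, a proton-sensing receptor just short of the threshold, read -0.32, -0.59 and -0.73 at 6, 12 and 24 h, and Spp1, the secreted protein osteopontin, -0.23, -0.90 and -1.26. Clec7a, a receptor for fungal glucans, read -0.21, -0.54 and -0.84. The untreated signal at 6 h was below its later mean in all but 1 of the 25 members, as for Spp1 with 8.72, 9.20 and 9.45. The treated signal of Spp1 was 8.49, 8.30 and 8.20. Its part in the small 6 h ratios was not tested. Of 31 measured lineage transcription factors Id1 was at least 0.32 higher (0.35, with 0.56 and 0.63 later) and Klf2 lower (-0.49). Over all genes 1.79% were higher and 0.725% lower. Spi1 read -0.22, Irf8 -0.21, Cebpa -0.13 and Runx1 0.20.

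Cytokine signalling genes were spread about 0, with a median of 0.02. Of 30 measured members 19 were above 0, a share near the 59.8% of all genes. Socs2 and the casein gene Csn1s2a, a STAT5 target of the mammary gland, were past 0.32. These 2 of 30 stand beside 1.79% of all genes higher. Csn1s2a read 8.99 untreated and 9.38 treated at 6 h, with ratios of 0.39, 1.10 and 1.79. Cish and Socs1, other feedback inhibitors, read -0.12 and 0.07, and the receptor chains Csf2ra and Csf2rb, through which GM-CSF acts, 0.17 and -0.09. Socs2 and Csn1s2a thus ran in opposite order over the 3 arrays.

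Stress and growth programmes had few members past 0.32 at 6 h, as did all genes, with 1.79% higher and 0.725% lower. Among p53 response genes 1 of 21, Trp53 itself, was past 0.32 on disagreeing probes, and Cdkn1a, a cell cycle inhibitor and p53 target, read -0.15. None of 31 measured genes of the unfolded protein response, 20 of NF-kB, 22 of interferon, 28 immediate early, 13 BCL2 family, 39 DNA replication, 35 mitosis, 31 proteasome, 31 lysosome, 46 ribosomal protein and 35 oxidative phosphorylation genes was past 0.32 either way. Single members were past it among the ATF4 response (Psph, serine synthesis, 0.34 in both probes) and cell cycle regulators (Cdc25a, 0.38). The largest members of the lists without such genes stayed between -0.29 and 0.30.

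**Figure D5:**
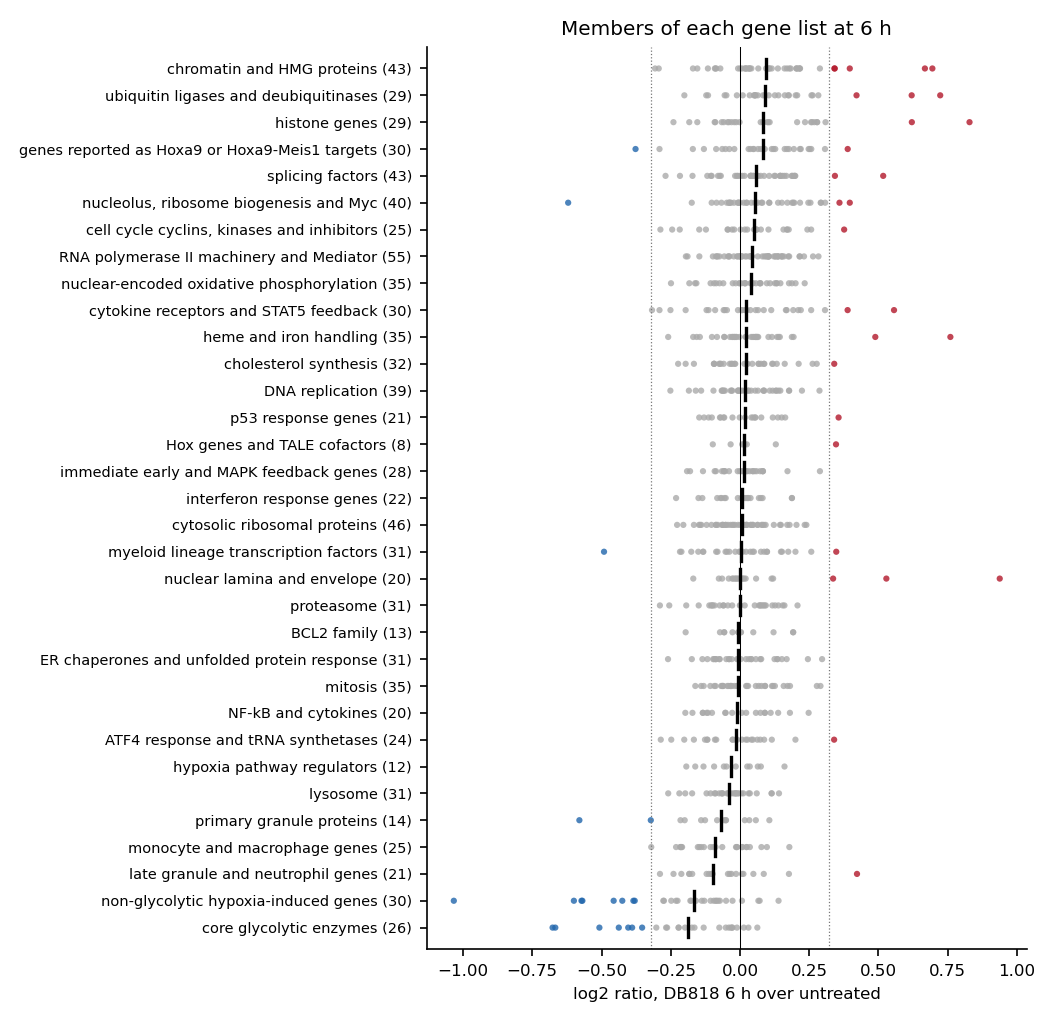
Log2 ratios at 6 h of the measured members (points) of 33 gene lists, with the number measured in brackets, medians as black bars and dotted lines at 0.32 above and below 0. The glycolysis and other hypoxia lists lie lowest, with medians of -0.19 and -0.17 and 15 blue points past 0.32, and the chromatin list highest at 0.09.

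Genes seen in 1 channel only gave bounds, counted over probes of genes with no probe measured in both channels and none above background in the dim channel. Each bound sets the bright channel against the lowest signal that was well above background on this array, or the dim channel's own if higher. Of 898 probes with Cy3 not well above background 5 had a bound at least 0.32 higher on the log2 scale. Taf2, a subunit of the general factor TFIID, was at least 1.38-fold and 1.31-fold higher by its 2 probes, Icam5 at least 1.30-fold and the water channel gene Aqp11 at least 1.28-fold. Of 193 probes with Cy5 not well above background 10 had a bound at least 0.32 lower, led by the receptor gene Gpr176 (at least 1.93-fold) and the keratin gene Krt2 (at least 1.86-fold). Neither of these was measured in both channels on the later arrays. Of 20 probes saturated in Cy5, mostly for ribosomal proteins, none gave a bound past 0.32.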

How the data were processed

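One two-colour Agilent array per treatment time (6, 12 and 24 h) held RNA of DB818-treated (Cy5) and untreated (Cy3) cells, per the labels. The authors ran Agilent Feature Extraction 9.1.3.1 on the scans, per the submitters' processing notes. The deposited scanner files hold foreground and background intensity per spot and channel and other flags, per the file headers. The deposited log10 ratio of the value table was that of the scanner files. Log2 ratios were computed here from the deposited intensity columns.

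Background medians and foreground means were corrected with normexp (offset 50) and fitted by loess within the array in limma 3.58.1 (R 4.3.3, version 1.17.8 of the data-table package). The offset draws ratios of dim genes toward 1. Control spots and 37 outlier spots of the 6 h array did not enter. Repeated spots were averaged to a probe, and a gene was the mean of its unsaturated probes flagged well above background in Cy3 and in Cy5. Single channels were compared across arrays after quantile scaling of the mean of both channels (Aquantile), which leaves the ratios unchanged. Values of a gene at 12 and 24 h used its 6 h probes alone and needed each of them (10888 and 10868 genes), a rule set after seeing the data. Counts of higher and lower genes at those times used all probes measured there. Genes were named by accession (22864 probes), symbol (6732) or synonym (3498) through a RefSeq table, and otherwise as in the file (8080). RefSeq windows were matched by symbol for 8201 of 11450 genes. Columns of the tables that matched no sample numbered 0, so none is reported.

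No test was run. Data were simulated from the brightness of the 6 h array, with an assumed noise SD of 0.1 and a smooth dye curve. Past a log2 ratio of 0.32 in the right direction came 76 of 100 probes planted at 1.5-fold and 88 of 100 at 2-fold. Their recovered log2 sizes had medians of 0.43 and 0.78. Of 16692 unchanged probes 8 came out past 0.32 either way. The simulation held no dye bias of single genes and no spread between probes of a gene or between cultures. It therefore gives no rate of false calls for the genes called here.

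Named genes were the 15 highest and 15 lowest established genes with probes of one sign, the 10 highest and 10 lowest by their least extreme probe, up to 6 members per list, the 3 largest bounds each way and the genes fixed by name. Pathway members in order, relatives of a named gene and Hoxd9 were added after their values were seen. One gene that this rule names is not reported here. Members, lists and rules were chosen with earlier results of these data known. Alternatives covered background correction, normalisation, the dim-probe filter and the choice of probes. Summaries and plots used pandas 2.3.3, matplotlib 3.10.9 and numpy 2.4.6 in Python 3.11.15.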

Additional observations from a re-analysis of the deposited data

How the results depend on the processing

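The counts of genes past 0.32 depended on how the ratio was formed. Main counts were 205 higher and 83 lower at a log2 ratio of 0.32, and 15 and 9 at 1.5-fold. In the same order they were 465, 157, 39 and 24 with plain background subtraction, 474, 250, 46 and 28 with normexp at offset 10, 683, 814, 120 and 180 with the scanner's own log ratio, and 1766, 3343, 252 and 1553 with median centring. Over the 3992 genes with at least 2 measured probes they were 68, 5, 1 and 0, from fewer genes. The brightest probe of each gene gave 38 genes 1.5-fold higher. The other counts with the brightest probe and all 4 without the dim-probe filter stayed within 1.5 times the main ones. Of the named genes past 0.32, these changed sign. With median centring Tpi1 read 0.0032, Slc16a3 0.10 and Mpo 0.23. Medians of 33 lists moved by more than their spread in 21 lists with median centring and in 1 (other hypoxia genes, -0.30) with the scanner's log ratio. The cause of these moves was not tested. No paired analysis was possible because each treatment time had 1 array. For the same reason no array could be left out. Signal limited the view of dim genes: 1727 probes were above background in Cy5 alone and 256 in Cy3 alone.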
